A study of Camelina sativa with 41 samples.

Results

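In developing seeds of Camelina sativa, 154 genes of the 89418 in the count table rose at least 4-fold in each of 2 successive steps. The steps, measured as below, ran from 5 to 8 and from 8 to 11 days post-anthesis (DPA, counted from flower opening). After further limits, 138 of the 154 genes are described here. They were chosen on mean CPM, the counts of a gene scaled to its library's total. The first step was A, the log2 of the mean at 8 DPA plus 0.5 CPM over the mean at 5 DPA plus 0.5 CPM, and the second was B, the same for 11 over 8 DPA. Both had to reach 2. The 100 genes of highest mean CPM over the 9 libraries and the 22 factors named for DNA-binding assays were left out. So were genes whose CPM in 11 DPA replicate 1 was 4 times that of replicate 2 or more. At most 200 genes were to be kept, by their mean at 11 DPA, and that cap was not reached. The values that chose these genes are given below as a description and without a test.

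Camelina, grown for the oil of its seeds, belongs to the mustard family and is hexaploid. The study followed seeds of the cultivar Suneson, untreated and labelled wild type. Messenger RNA of whole seeds was sequenced at 3 ages, 5, 8 and 11 DPA, from 3 biological replicates of each and about 100 mg of seed apiece, per the labels' protocols. The plants grew in a greenhouse, and the labels do not say how many plants gave a replicate. A whole seed holds embryo, endosperm and seed coat, so more cells of a type and more RNA per cell cannot be told apart.

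Seeds of this family first build their endosperm and coat while the embryo is small. The embryo then fills the seed and lays down oil and storage proteins, a phase known as maturation. In Arabidopsis, a relative, genes for storage proteins, oil-body proteins and the enzymes that lengthen and desaturate fatty acids are known to become active in that phase under a set of master transcription factors. Which of the 138 genes belong to such groups cannot be said here. No file gives names for these IDs, and 0 of them matched the 98741 genes of the reference table. For the same reason the seed label could not be checked against marker genes. Genes are therefore given by ID and by where the rule for named genes put them.

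Library totals ran from 15659011 counts in 5 DPA replicate 1 to 46863553 in 11 DPA replicate 1, and the next smallest was 38268473. The resequenced column of 5 DPA replicate 1 equalled that of replicate 2 for all 89418 genes, so it was counted once, with replicate 2. The counts do not show which replicate it belongs to, so the separate values of 5 DPA replicates 1 and 2 rest on that choice. With 3 counts taken as the floor, 1 library resolves 0.192 CPM in 5 DPA replicate 1 and 0.0640 to 0.0784 CPM in the others. Floors and intervals cover counting error only. Libraries that stood apart for these genes were 8 DPA replicate 3 and 11 DPA replicate 1, whose values are given below.

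Fewer genes rose steeply in both steps than in either step. Of the 89418 genes in the count table, A reached 2 in 1328 and B in 880, and 154 genes had both. Whether the steps went together more or less often than these separate counts imply was not tested. Of these 154, 7 were among the 100 most abundant and 1 was an assayed factor, Csa04g012470, whose A was 3.58 and B 2.59. A further 8 were left out for the ratio of 11 DPA replicate 1 to replicate 2. Over the 138 genes the median A was 2.80 (range 2.02 to 6.90) and the median B was 2.67 (range 2.0006 to 5.87). Which median is the larger depends on the pseudocount: with 0.1 CPM they were 4.16 and 2.76, and with 1 CPM 2.31 and 2.56. Over the 63017 genes tested the medians were 0.0246 and -0.0608.

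**Figure D1:**
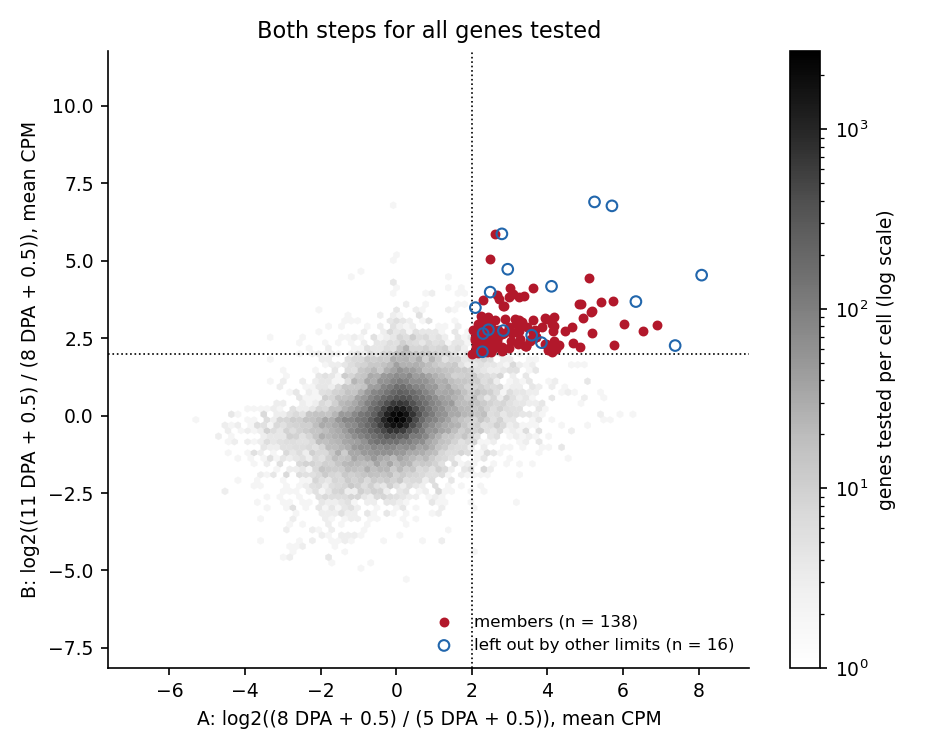
Each tested gene by its log2 change from 5 to 8 DPA (A, horizontal) and from 8 to 11 DPA (B, vertical), both from mean CPM plus 0.5, with shading for the number of genes. The 138 chosen genes (red) lie right of and above the dotted limits of 2, and open circles mark the 16 genes left out by the other limits, among them the largest A (8.08) and the largest B (6.89) of that corner.

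The limits cut through a continuous range. Csa04g063090 lay nearest inside both, with A of 2.02 and B of 2.0006, and had the lowest mean of the 138 at 11 DPA (8.64 CPM). Just outside, Csa09g062800 had A of 1.99 with B of 3.00, and Csa05g003380 had B of 1.99 with A of 2.05. At the limit on the 11 DPA replicates, Csa11g057650 was kept at a ratio of 3.90 and Csa10g047190 was left out at 4.01.

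All 138 genes passed the filter on low counts. Each was called higher in both steps by edgeR's quasi-likelihood test, with 0.05 as the limit on the Benjamini-Hochberg adjusted p. Among all tested genes 18.1% were called higher at 8 versus 5 DPA, 20.8% at 11 versus 8 DPA and 6.93% in both. No 8 DPA library overlapped a 5 DPA library for any of the 138, and no 11 DPA library overlapped an 8 DPA library; over all tested genes the shares were 29.5% and 23.6%, and 9.76% in both steps. The rule used the same libraries, so these counts only describe the genes.

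Together the 138 genes grew from a trace to a measurable share of the messenger counts. They summed to 111, 144 and 132 CPM in 5 DPA replicates 1 to 3. At 8 DPA the sums were 1726, 1541 and 2595 CPM, and at 11 DPA 17128, 11569 and 12154 CPM. Their mean share of all counts was 0.0129% for 5 DPA seeds, then 0.195% by 8 DPA and 1.36% by 11 DPA. The sums averaged 129 ± 16.6, 1954 ± 563 and 13617 ± 3055 CPM in the same order (SD, n = 3 libraries per age). Levels were uneven among the genes: the 18 highest were needed to reach 50% of the sum at 11 DPA, and the 10 highest held 38.4%.

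**Figure D2:**
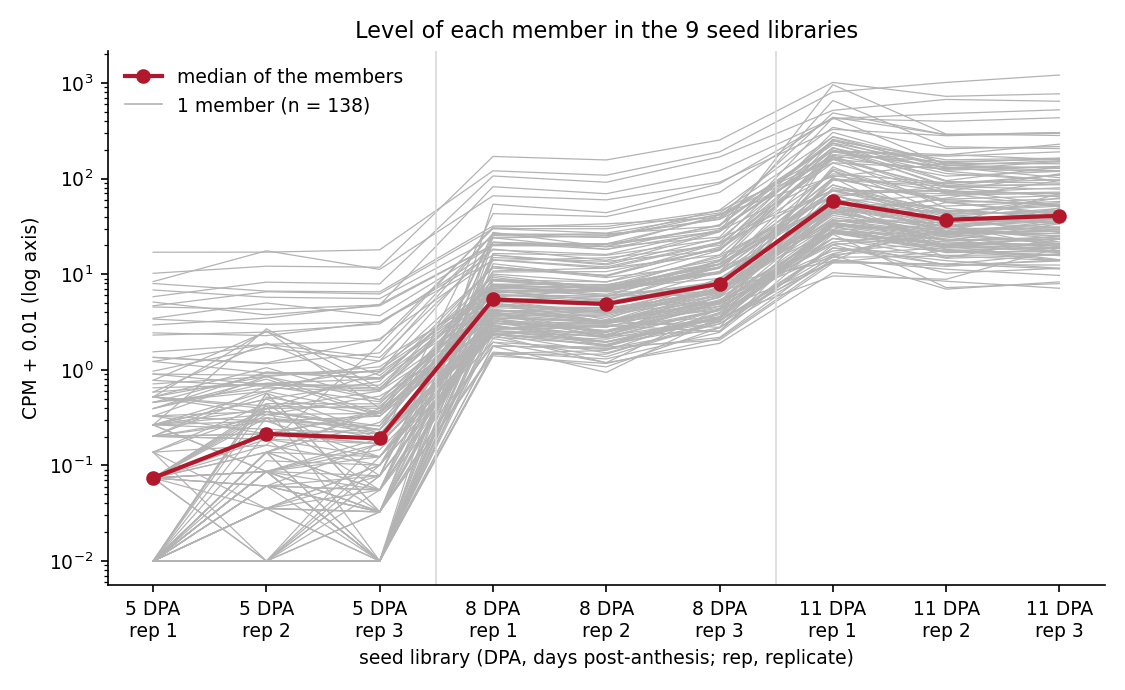
CPM plus 0.01 on a log axis for each of the 138 genes (grey lines, each joining the values of 1 gene) in the 9 seed libraries, with the median of the genes in red. The median was 0.0639 to 0.204 CPM in the 5 DPA libraries, 4.87 to 7.96 CPM at 8 DPA and 37.1 to 57.7 CPM at 11 DPA.

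Most of these genes were low in the youngest seeds, though 82 of the 138 were counted in all 3 of the 5 DPA libraries. At 5 DPA, 11 had no count in any of the 3 libraries, 18 had 1 to 3 counts, 56 had 4 to 30 and 53 had more. The mean was under 1 CPM for 114 genes. Replicate 1, the shallow library, had no count for 51 of them, against 21 and 24 in replicates 2 and 3. From 8 DPA on every gene was counted in every library, with at least 41 counts at 8 DPA and 295 at 11 DPA. At 11 DPA 37 genes reached 100 CPM, 100 lay between 10 and 100 CPM, and 1 lay below.

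How far the libraries of successive ages lay apart differed among the genes. The rule largely fixes such gaps, so the counts only describe them. For 137 of the 138 genes the lowest 11 DPA library was at least 2 times the highest 8 DPA library, and for 74 at least 4 times, against 4.78% and 1.51% of all tested genes. Between 8 and 5 DPA the lowest library of the later age was at least 2 times the highest of the earlier one for all 138, and at least 4 times for 127, where genes with no count at 5 DPA were taken as past both. Among all tested genes these shares were 6.23% and 2.98%.

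Of the 10 most abundant of the 138 genes at 11 DPA, 5 averaged 1 CPM or more at 5 DPA and 5 less. The 2 highest were present from the start. Csa20g023250 had 16.99, 17.02 and 17.99 CPM in the 5 DPA libraries, 121, 109 and 190 CPM in those of 8 DPA and 804, 1015 and 1212 CPM in those of 11 DPA. Its 3 ages lay far apart, and its 11 DPA libraries ran opposite to those of most of the 138 genes, with replicate 1 the lowest. Csa05g020430 had 10.2, 12.1 and 11.8 CPM in the 5 DPA libraries, 171, 157 and 253 CPM in those of 8 DPA and 1014, 726 and 771 CPM in those of 11 DPA. Its first step was the steeper, with A of 4.03 and B of 2.11, while that of Csa20g023250 was near its second (A 2.98, B 2.85).

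Per kilobase of the deposited gene length the order was another. The length is the authors' own and the file does not say whether it includes introns. Csa10g017840 had the highest mean level at 11 DPA on that scale, 405 CPM per kb, followed by Csa05g020430 at 317 CPM per kb, while Csa20g023250 stood at 221 CPM per kb. That order rested on 11 DPA replicate 1: without it Csa05g020430 was the highest at 283 CPM per kb, Csa20g023250 followed at 243, and Csa10g017840 ranked 4 at 227 CPM per kb. The median of the 138 was 20.9 CPM per kb, with a range of 2.66 to 405. Csa10g017840 had 0, 0.560 and 0.0227 CPM in the 5 DPA libraries, 24.1, 18.2 and 27.9 CPM in those of 8 DPA and 961, 293 and 283 CPM in those of 11 DPA. Most of its level at 11 DPA came from replicate 1: the ratio of mean CPM at 11 to 8 DPA was 21.9, and 12.3 without that library. Its 5 DPA signal lay mostly in replicate 2; the ratio of 8 to 5 DPA was 120, and 2064 without that replicate, which leaves 1 count at 5 DPA.

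The largest first steps belonged to genes that were all but silent at 5 DPA. Csa17g048640 had 3 counts at 5 DPA, all in replicate 2, against 54.1, 44.0 and 88.5 CPM at 8 DPA and 425, 478 and 525 CPM at 11 DPA. Its A was 6.90 and its B 2.93. The pooled ratio of 8 to 5 DPA was 2023, with a 95% counting interval of 692 to 9810. It was 1121 without 5 DPA replicate 3, and without replicate 2 where no count was left, 8 DPA seeds were at least 1221-fold higher than a floor of 3 counts over the group. Csa15g010180 had 0, 0.0509 and 0.159 CPM in the 5 DPA libraries, 43.0, 40.1 and 71.8 CPM in those of 8 DPA and 439, 288 and 303 CPM in those of 11 DPA, with A of 6.52 and B of 2.72. The second place of Csa15g010180 depends on the pseudocount: with 0.1 CPM its A was 8.25, below the 8.33 of Csa19g012260, which had no count at 5 DPA.

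The largest second steps belonged to genes that were still scarce at 8 DPA. Csa02g020500 had no count at 5 DPA, 2.42, 1.74 and 3.48 CPM in the 8 DPA libraries, and 195, 179 and 158 CPM at 11 DPA. Its A was 2.61 and its B 5.87, and its mean at 11 DPA was 69.6 times that at 8 DPA. At 8 DPA it was at least 82.8-fold higher than the floor of 3 counts over the 5 DPA libraries (0.0303 CPM); leaving out replicate 2 of the 5 DPA libraries lowered the bound to 50.0-fold, and leaving out replicate 3 to 45.9-fold. Csa10g011160 had 0, 0.0764 and 0.0227 CPM in the 5 DPA libraries, 1.93, 1.18 and 4.39 CPM in those of 8 DPA and 98.7, 88.3 and 109 CPM in those of 11 DPA. Its mean at 11 DPA was 39.4 times that at 8 DPA, and 63.4 times without 8 DPA replicate 3, which held most of the 8 DPA signal. Both genes had close replicates at 11 DPA, with a coefficient of variation (CV, SD over mean) of 10.3% each.

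**Figure D3:**
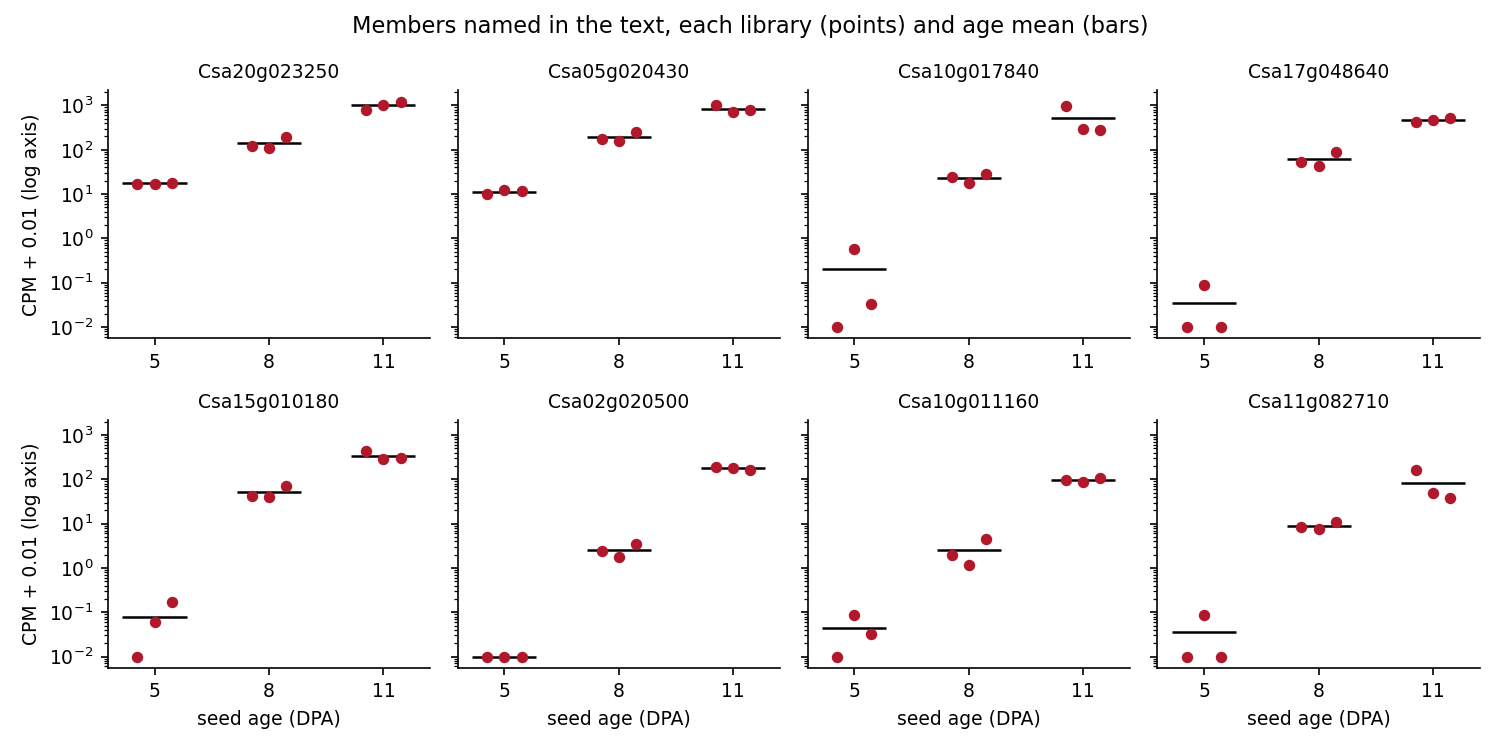
CPM plus 0.01 on a log axis at 5, 8 and 11 DPA for 8 of the named genes, with a point per library (replicates 1 to 3 from left to right) and a bar at the age mean. Csa20g023250 and Csa05g020430 started above 10 CPM, the other 6 below 1 CPM, and replicate 1 stands above the other 11 DPA points for Csa10g017840 (961 CPM) and Csa11g082710 (166 CPM).

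Which step is called the steeper depends on the pseudocount, since most genes were near 0 at 5 DPA. With 0.5 CPM, A exceeded B in 85 genes and B exceeded A in 53; the steps were within 1 of each other in 97, A was larger by 1 or more in 35, and B in 6. With 0.1 CPM A was the larger in 123, and with 1 CPM in 52. The 3 groups changed as well. With 0.1 CPM, 55 genes were within 1, A was larger by 1 or more in 82, and B in 1. With 1 CPM these counts were 97, 16 and 25. The medians below are for the groups made with 0.5 CPM. The 35 genes with the larger first step had a median of 0.0576 CPM at 5 DPA, then 18.5 CPM by 8 DPA and 140 CPM by 11 DPA. In the 97 with steps within 1 the medians were 0.194, 4.40 and 32.0 CPM at the same ages. In the 6 with the larger second step they were 0.295, 4.91 and 97.5 CPM.

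Replicates at 11 DPA agreed closely for some genes and poorly for others. The CV at 11 DPA ran from 4.04% to 84.4%, with a median of 27.0%. It was smallest for Csa09g006870, with 75.1, 69.2 and 72.3 CPM at 11 DPA against 14.1, 11.5 and 21.1 CPM at 8 DPA, and next for Csa06g037270, with 424, 398 and 433 CPM against 82.2, 69.5 and 121 CPM. Both varied more at 8 DPA, where replicate 3 was the highest. It was largest for Csa11g082710, with 166, 49.0 and 37.7 CPM at 11 DPA against 8.56, 7.59 and 10.6 CPM at 8 DPA, and for Csa11g057650, with 103, 26.4 and 28.4 CPM against 3.02, 2.99 and 6.06 CPM. In both, replicate 1 set the mean: the ratio of 11 to 8 DPA was 9.45 for Csa11g082710 and 4.86 without that library, and 13.05 for Csa11g057650 and 6.81 without it.

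At 8 DPA, the difference of 1 replicate from the others was shared by nearly all of the 138 genes. Deviations of a library from its age mean entered the rule only through its limit on the first 2 replicates of 11 DPA and through the age means. In 134 of the 138 genes (97.1%) replicate 3 was the highest 8 DPA library, against 39.5% of all tested genes. The exceptions were Csa11g100620, Csa06g029440, Csa14g023360 and Csa04g063090, named here after their values were seen. Relative to the mean of replicates 1 and 2, replicate 3 had a median of 1.62 times the CPM, with a range of 0.825 to 2.82. On the scale of log2(CPM + 0.5) the median deviation from the age mean was 0.42 in replicate 3, -0.12 in replicate 1 and -0.31 in replicate 2, against 0.0053, 0.0030 and -0.0060 over all tested genes. The CV at 8 DPA had a median of 31.3% over the 138 genes and 9.19% over all tested genes.

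At 11 DPA the library that stood out was replicate 1, less uniformly. It was the highest of its age in 103 of the 138 genes (74.6%), against 27.0% of all tested genes. Its ratio to the mean of replicates 2 and 3 had a median of 1.49 and ran from 0.366 to 3.83, and 30 genes had at least 2 times that mean. The median deviation was 0.38 in replicate 1, -0.20 in replicate 2 and -0.17 in replicate 3. Among the 5 DPA libraries the medians were -0.08, 0.03 and 0.00, with replicate 2 the highest in 65 genes, 3 in 39 and 1 in 34. Ties were counted under replicate 1, so its 34 include the 11 genes with no count in any 5 DPA library.

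Both runs of a library gave nearly the same level for these genes. Over the 138 genes the median log2 ratio of the resequenced to the first run was -0.0043 to 0.0236 in the 8 DPA libraries and -0.0125 to 0.0066 at 11 DPA. The median size of that ratio was 0.111 to 0.133 at 8 DPA and 0.0374 to 0.0510 at 11 DPA. The runs share the seeds, so these values cover the sequencing step alone. The part of both libraries in the steps was measured by leaving them out: 114 of the 138 genes still met both limits without both.

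Genes of other shapes shared these shifts in part. For comparison, 309 genes had A of at least 2 and B within 0.5 of 0, and 100 had A within 0.5 of 0 and B of at least 2. Both sets followed the other limits of the rule and had at least the lowest mean of the 138 at 11 DPA. In 8 DPA replicate 3 the median deviation was 0.42 in the 138 genes, 0.15 in those that levelled off and 0.15 in those that rose late. That replicate was the highest in 97.1%, 88.3% and 68.0% of the 3 sets. In 11 DPA replicate 1 the median was 0.38 in the 138 genes, -0.18 in those that levelled off and 0.32 in those that rose late. In 5 DPA replicate 3 it was 0.00, 0.22 and -0.08. The sets were made from the same libraries, and the differences between them were not tested.

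**Figure D4:**
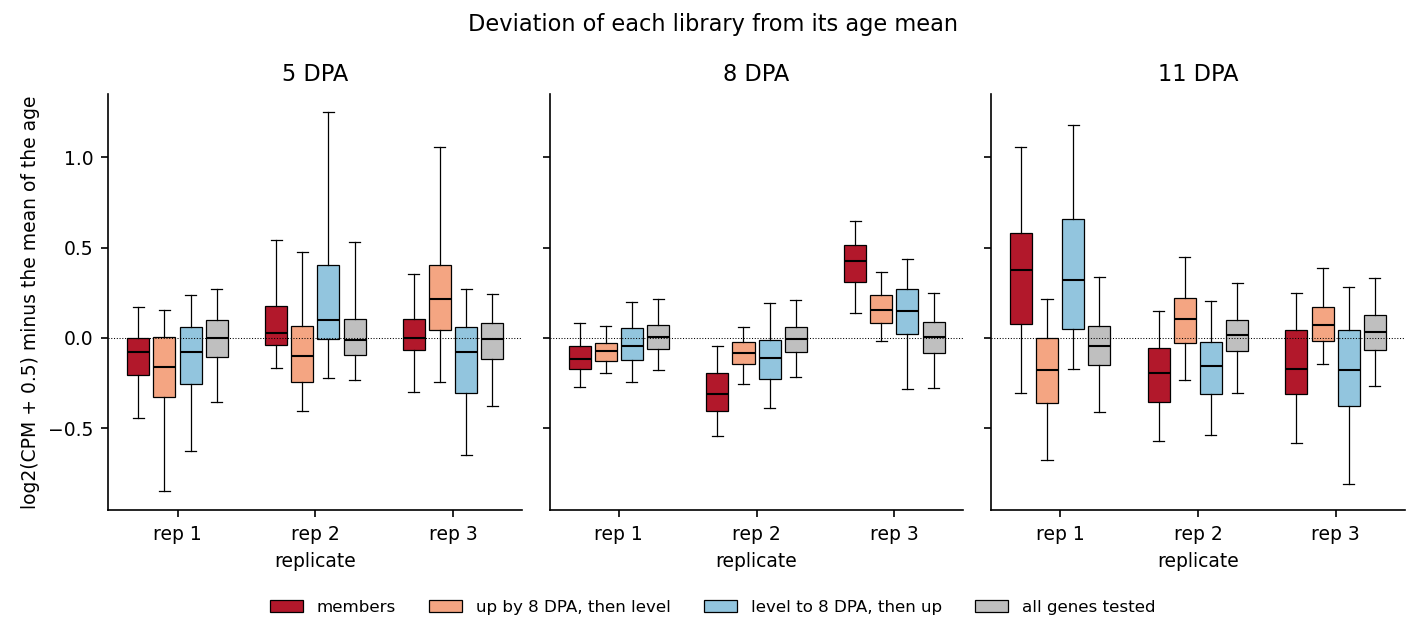
Deviation of log2(CPM + 0.5) in each library from the mean of its age, for the 138 genes, 309 genes that rose by 8 DPA and levelled off, 100 that rose only after 8 DPA, and the 63017 genes tested. Boxes span the quartiles with the median as a line, and whiskers the 5th to 95th percentile of genes. The 138 genes stand highest in 8 DPA replicate 3 (median 0.42) and in 11 DPA replicate 1 (median 0.38), while all tested genes stay near 0.

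Of genes picked on 2 replicates of each age, 110 of 127, 94 of 168 and 73 of 157 met both limits in the third. The rule itself was set with earlier results of these data known, and the 138 genes were chosen with all 3 replicates. These values therefore only describe the picked genes and do not test the 138. The rule was applied to 2 replicates of each age and the steps were read in the third; the number of a replicate only names it and does not pair libraries. Replicates 2 and 3 picked 127 genes, of which 115 are among the 138. In the libraries of replicate 1 their median A was 2.81 and their median B 3.29, and 110 of the 127 had both at 2 or more, against 0.351% of all tested genes. Replicates 1 and 3 picked 168 genes (129 of the 138), with medians of 2.40 and 2.78 in replicate 2, where 94 passed both limits, against 0.213%. Replicates 1 and 2 picked 157 genes (118 of the 138). In replicate 3 their median A was 3.41 and their median B 1.93, with 157 at the limit on A but 73 at that on B, so that 73 passed both, against 0.200%. A was above 0 in the third replicate for all picked genes but 1, in replicate 2, and B for all but 1 in replicate 1 and 1 in replicate 3. The 138 genes stood high in 8 DPA replicate 3 (median deviation 0.42) and in 11 DPA replicate 1 (median deviation 0.38). Whether these levels account for the lower B in replicate 3 (1.93) or the higher B in replicate 1 (3.29) was not tested.

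Position in the genome was not used by the rule. The genome of Camelina consists of 3 subgenomes of similar chromosomes, and the chromosome number in the gene ID places each of the 138 genes in one. Which chromosomes form a subgenome is taken from what is known of this genome, since the files do not give it. Subgenome 3 (chromosomes 2, 5, 9, 12, 15, 17 and 20) held 61 of the 138 genes (44.2%), against 34.2% of all tested genes and 35.1% of the 24485 tested genes at or above the lowest mean of the 138 at 11 DPA. Subgenome 1 (4, 7, 8, 11, 14 and 19) held 40 (29.0%, against 32.2% of tested genes), and subgenome 2 (1, 3, 6, 10, 13, 16 and 18) held 37 (26.8%, against 31.5%). Of the summed mean CPM of the 138 genes at 11 DPA, subgenome 3 held 7692, subgenome 1 2718 and subgenome 2 3206. Over all tested genes the sums were 388758, 301656 and 300302 CPM in the same order. The 3 highest of the 138 at 11 DPA, with means of 1010, 837 and 612 CPM, are all on subgenome 3. The share in subgenome 3 was 34.0% among the genes that levelled off and 39.0% among those that rose late. Near-identical copies on different subgenomes can share or lose reads, depending on the counting step, whose settings were not stated.

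**Figure D5:**
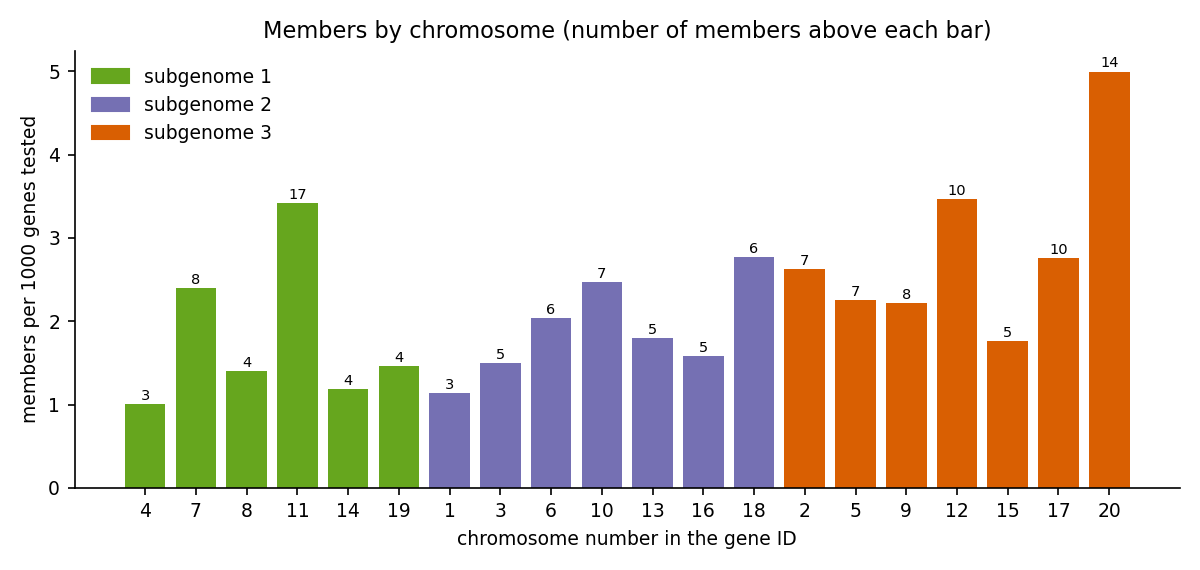
Genes rising steeply in both steps per 1000 tested genes of each chromosome, coloured by subgenome, with the number of such genes above each bar. Chromosome 20 has 14 of them (5.00 per 1000), chromosome 12 has 10 (3.46) and chromosome 11 has 17 (3.42), while chromosome 4 has 3 (1.01).

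Rates varied among the chromosomes of a subgenome as well, and these differences were not tested. Among all tested genes, 138 of 63017 were in the set, and the highest and lowest chromosomes are given here. Per 1000 tested genes, chromosome 20 held 5.00 of the 138, chromosome 12 held 3.46 and chromosome 11 held 3.42, against 1.01 on chromosome 4 and 1.14 on chromosome 1. Some counts were small, with 3 genes each on chromosomes 1 and 4. The 138 genes had medians of A of 3.02 on subgenome 3, 2.57 on subgenome 1 and 2.79 on subgenome 2, and of B of 2.66, 2.64 and 2.73. Their deposited length had a median of 1956 bases, against 2267 for all tested genes and 2735 for tested genes at or above the lowest 11 DPA mean of the 138. By strand 65 were on the plus and 73 on the minus strand.

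Some of the 138 genes were close neighbours. Taken in the order of their IDs along a chromosome, 1 pair of the 138 was consecutive and 3 pairs, that one included, lay within 3 steps. No such count was made for other genes, so whether these numbers are high or low was not tested. The consecutive genes, Csa17g023890 and Csa17g023900, are on opposite strands. Csa17g023890 had 0, 0 and 0.0680 CPM in the 5 DPA libraries, 14.9, 13.6 and 17.8 CPM in those of 8 DPA and 210, 113 and 95.9 CPM in those of 11 DPA. Csa17g023900 had 1 count at 5 DPA, in replicate 1; it had 1.47, 1.58 and 3.89 CPM by 8 DPA and 33.2, 20.3 and 20.9 CPM by 11 DPA. Both were highest in 8 DPA replicate 3 and 11 DPA replicate 1. The ratio of 11 to 8 DPA of Csa17g023900 was 10.7, and 16.2 without 8 DPA replicate 3. No source used here states whether counting was by strand, so reads of overlapping neighbours may be mixed. The genes on either side, Csa17g023880 and Csa17g023910, did not rise in that way. From 5 over 8 to 11 DPA the means of Csa17g023880 were 3.29, 2.92 and 2.40 CPM, and those of Csa17g023910 were 1.97, 2.39 and 3.90 CPM.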

How the data were processed

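Whole-number counts per gene and sequencing run, as the authors deposited them, were the measurement; the deposited gene length, in bases, was used only to scale levels between genes. Upstream tools, per the submitters' processing notes and with no role stated, were HISAT2 2.0.4, Bowtie2 2.3.4.1, Trimmomatic, FastQC and bcl2fastq 2.20.0. The sources used here do not name the counting tool, annotation or build. The 2 runs of a replicate were summed, except the repeated column of 5 DPA replicate 1. CPM used unadjusted library totals. The peak lists were not used, since the count table gives no positions.

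Calls (adjusted p under 0.05) were made in R 4.3.3 by the quasi-likelihood test of edgeR 4.0.16, with TMM scaling, its filterByExpr filter and age as the sole term over all 9 libraries. The script was tested on simulated counts. Alternatives used DESeq2 1.42.0, other scalings, pseudocounts, filters and runs, and left out each library. Tables and figures used Python, NumPy, pandas, SciPy and Matplotlib. Intervals are exact (Clopper-Pearson, 95%) and cover counting error.

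The genes and lists were chosen with earlier results of these data known. Genes were named by fixed places among the 138, at most 2 each: highest CPM and CPM per kb, largest A, B and difference of steps, extremes of CV at 11 DPA, nearest each limit, and consecutive IDs.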

Additional observations from a re-analysis of the deposited data

How the results depend on the processing

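The calls and the direction of both steps held in every alternative tried. All 138 genes were called higher in both steps by edgeR with the other scaling, with no filter, with only the 2 ages compared, with the first run alone, with the runs summed as deposited and without each library, and by DESeq2. With the replicate number as a block all 138 remained called too. Over all tested genes, 2911 of 64566 were called higher in both steps without 8 DPA replicate 1, the fewest among the alternatives. The most were 4893 of 63146, with the runs summed as deposited. The rule chose the 138 by their steps in these libraries, so their calls are a description only. Same-numbered libraries of different ages had correlations of -0.0887 to 0.184 in their deviations, and not every library correlated best with its own number, so the numbers were not taken to pair them. The median A was 4.16 with a pseudocount of 0.1 CPM and 2.31 with 1 CPM, against 2.80; a smaller pseudocount enlarges steps that start near 0. Of the 138 genes 93 kept both limits with 1 CPM, 118 without 8 DPA replicate 3, 122 without 11 DPA replicate 1 and 114 without both of these (an alternative chosen after seeing the data, like the comparison sets and the reading of the third replicate), and 129 or more in the others. Without 1 library the median A lay between 2.59 and 2.93 and the median B between 2.45 and 2.93. Depth limits the 5 DPA values most, where 51 of the 138 genes had no count in replicate 1.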
